A study of Mus musculus with 2 samples.

Results

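The proteasome genes described here are the rows of the count table whose symbol begins with Psma, Psmb, Psmc, Psmd, Psme, Psmf or Psmg followed by a number, without the retrocopy Psme2b and without Psmc3ip, whose product is not a proteasome subunit. The rule found 48 of the 30538 genes in the table. It used symbols alone, not measured values, but it was chosen with earlier results of these data known. RNA was sequenced from mouse spleen cells sorted as CD11b-positive, Ly6G-negative and Ly6C-low on day 3 after intravenous infection with 100000 *Listeria monocytogenes*, with about 100000 cells sorted. The C57BL/6 library came from infected mice of that strain with no engineered allele named, and the Ch25h-/- library from infected mice that lack cholesterol 25-hydroxylase, the interferon-induced enzyme that makes 25-hydroxycholesterol. Each genotype has 1 library, no uninfected library was analysed, and the labels state neither age nor sex, nor how many mice went into a library. There is therefore no replicate check, no p-value was computed, and every interval below is a 95% interval that covers counting error only.

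The proteasome is the barrel-shaped protease that degrades ubiquitin-tagged proteins. Its 20S core is made of outer rings of α subunits and inner rings of β subunits, and the β1, β2 and β5 subunits carry the active sites. The 19S cap recognises ubiquitin, unfolds the substrate with a ring of ATPases and feeds it into the core. Under interferon-gamma, which drives macrophage defence against *Listeria*, cells make the immunoproteasome subunits β1i (Psmb9), β2i (Psmb10) and β5i (Psmb8), which replace their constitutive counterparts Psmb6, Psmb7 and Psmb5, together with the PA28αβ activator (Psme1 and Psme2). These 5 genes are called interferon-inducible below, and the remaining subunits, activators and assembly chaperones constitutive. Psmb11 (β5t) and Psma8 are tissue-restricted, the former to thymic epithelium and the latter to male germ cells.

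The libraries held 16957371 counts (C57BL/6) and 15986392 counts (Ch25h-/-). Levels are CPM, counts per unit of library size after TMM scaling. Ratios are Ch25h-/- over C57BL/6, values in pairs are given in the order C57BL/6 then Ch25h-/-, and genes averaging 1 CPM or more count as measured. Ch25h itself had 3 counts in the C57BL/6 library and 0 in the Ch25h-/- library, too few to check the genotype labels. The labels call the cells splenic macrophages, but 10 red pulp macrophage markers summed to 313 and 195 CPM, and 12 natural killer (NK) and cytotoxic lymphocyte markers to 13340 and 21460 CPM. Ly6C-low monocyte markers summed to 2429 and 2946 CPM, and Ly6C-high monocyte markers to 1824 and 2815 CPM. Of 6 marginal zone macrophage markers, Cd209b had 0 counts in both libraries and the other 5 were measured, with 1950 and 1022 counts in sum. These sums are not corrected for gene length. A lower value in bulk RNA can reflect fewer cells of a type or less RNA per cell, and these cannot be told apart here.

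Reads of some members could also have come from near-identical copies, and the clearest case is the PA28β gene Psme2. The retrocopy Psme2b (chromosome 11, 48945354 to 48946190, GRCm38) has a coding sequence of 717 bases that is 99.3% identical to that of Psme2, with 5 substitutions counted from the first coding base, C312T, A369G, C489T, C519T and C543T (Psme2 base first). The stretch with most of these differences, coding bases 424 to 543 of the GENCODE M21 transcripts, is shown to illustrate how little separates reads of the 2 genes, with the differing bases in capitals.
Psme2: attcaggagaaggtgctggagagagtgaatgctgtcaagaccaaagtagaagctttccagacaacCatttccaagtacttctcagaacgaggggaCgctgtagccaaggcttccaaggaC
Psme2b: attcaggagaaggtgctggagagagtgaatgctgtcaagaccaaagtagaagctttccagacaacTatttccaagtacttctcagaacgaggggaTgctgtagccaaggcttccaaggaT
Psme2 had 1072 counts in the C57BL/6 library and 792 in the Ch25h-/- library, while Psme2b had 3050 and 2578. The copy thus held more counts than the parent gene in both libraries, and how the authors' counting divided such reads is not given in the sources used here.

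Of the 48 members, 46 were measured. Psmb11 had 0 counts in both libraries, which allows up to 3.69 counts on an exact Poisson interval. Psma8 had 0 counts in the C57BL/6 library and 4 in the Ch25h-/- library, where its interval ran from 1.09 to 10.2 counts. Both tissue-restricted genes were therefore at or near the limit of detection. None of the 46 measured members was called higher or lower, where a call needs at least a 2-fold ratio and an interval that excludes a ratio of 1. Over all 11972 measured genes, 7.84% were called, 2.07% as higher and 5.77% as lower. At a 1.5-fold threshold the members again gave 0 calls, against 18.6% of measured genes. Abundant genes are measured more precisely, so the count was repeated at a mean of 10 CPM or more, which 43 members and 8926 genes reached. There the members again gave 0 calls at either threshold, while 3.85% of the genes were called at 2-fold (0.975% higher, 2.88% lower) and 13.4% at 1.5-fold.

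**Figure D1:**
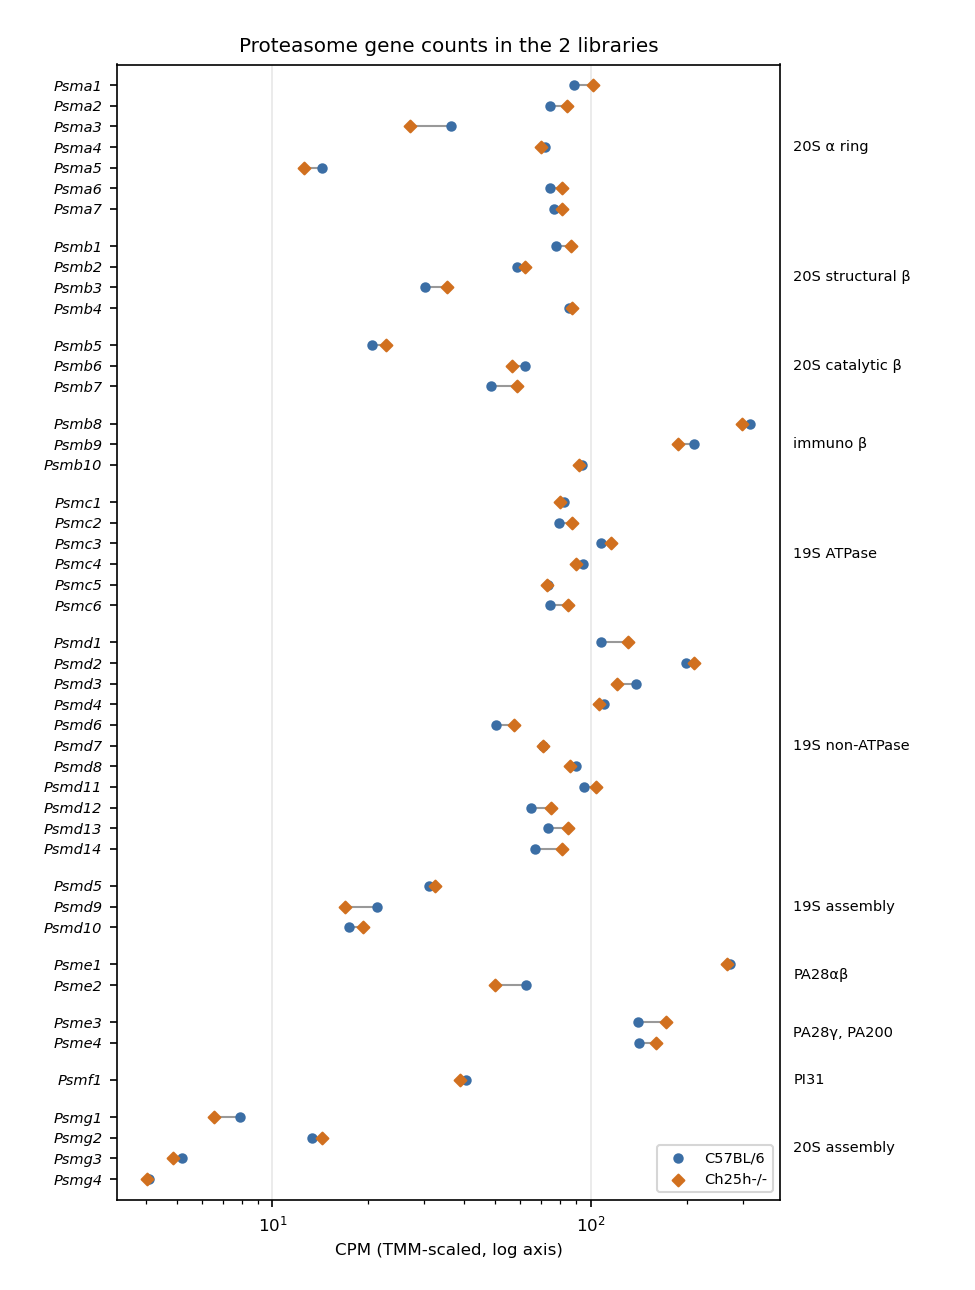
Level of each measured proteasome gene in the C57BL/6 library (circles) and the Ch25h-/- library (diamonds), in TMM-scaled CPM on a log axis, grouped by the role named at the right. Paired points lie close together throughout, and the widest gaps belong to Psma3, Psmd9 and Psme2. Levels of different genes on this axis are not corrected for gene length.

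The log2 ratios of the measured members ran from -0.43 (Psma3) to 0.30 (Psme3), with a median of 0.07 beside 0.02 for all measured genes. Values between -0.25 and 0.25 were found for 38 of 46 members (82.6%), and for 49.9% of measured genes. At 10 CPM or more, 36 of 43 members (83.7%) and 56.7% of genes lay in that range. Counting error was smaller than many of these small ratios. The interval lay wholly above 0 for 18 of 46 members (39.1%), against 31.0% of measured genes, and wholly below 0 for 7 (15.2%), against 27.5%. At 10 CPM or more these counts were 18 of 43 above (36.3% of genes) and 7 of 43 below (28.1% of genes), and 18 of 43 members against 45.2% of genes had a ratio under 0. The whole family made up 0.381% of the C57BL/6 reads counted (0.378 to 0.384%, exact binomial) and 0.386% of the Ch25h-/- reads (0.383 to 0.389%).

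**Figure D2:**
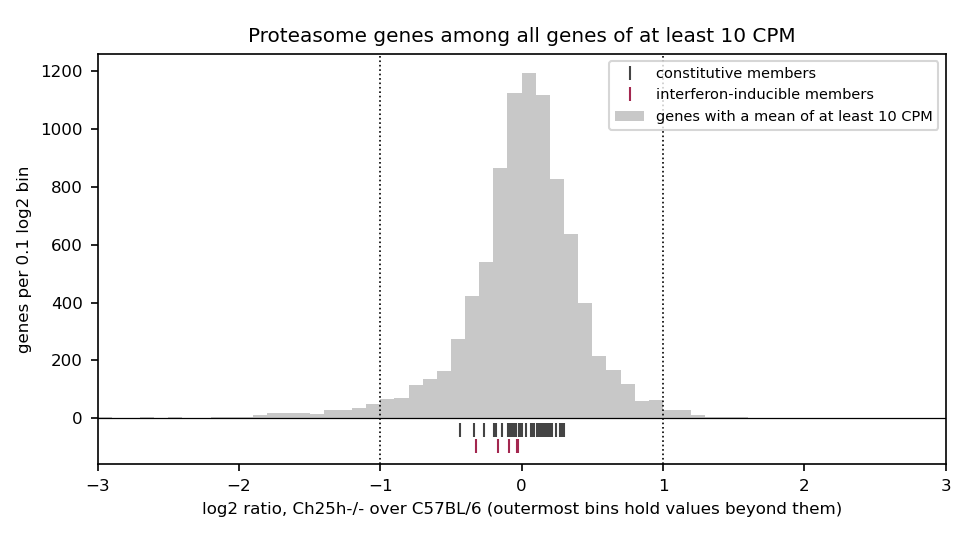
Distribution of log2 ratios (Ch25h-/- over C57BL/6) for the 8926 genes at 10 CPM or more on average, in bins of 0.1, with each measured proteasome gene as a tick under the bars. Dotted lines mark a 2-fold ratio. All 46 ticks fall between -0.43 and 0.30, and the 5 ticks of the interferon-inducible genes lie below 0.

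Of the 3 immunoproteasome catalytic genes, Psmb8 and Psmb9 were high in both libraries and slightly lower in the Ch25h-/- library, while Psmb10 had a lower level. Psmb8 (ENSMUSG00000024338, chromosome 17, 34197721 to 34201454), which encodes the chymotrypsin-like β5i subunit, had 5407 counts (316 CPM) in C57BL/6 and 4715 counts (298 CPM) in Ch25h-/- cells. Its log2 ratio was -0.09 (interval -0.14 to -0.03). Psmb9 (ENSMUSG00000096727, chromosome 17, 34181987 to 34187764), for β1i, had 3612 counts (211 CPM) and 2977 counts (188 CPM). That is a log2 ratio of -0.17 (-0.24 to -0.10), the lowest of the 3. Psmb10 (ENSMUSG00000031897, chromosome 8, 105935735 to 105938444), for β2i, stood at 1601 counts (93.6 CPM) and 1458 counts (92.0 CPM), and its log2 ratio of -0.02 (-0.13 to 0.08) did not differ from 0 beyond counting error.

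Psmb8 and Psmb9 lie in the major histocompatibility complex beside the peptide transporter genes Tap1 and Tap2, and Psmb9 is transcribed head to head with Tap1. Tap1 had 13718 and 12311 counts (log2 ratio -0.05, interval -0.08 to -0.01), and Tap2 had 7138 and 5725 (-0.21). All 4 neighbours therefore had log2 ratios between -0.21 and -0.05. The annotated exons of Psmb9 and Tap1 share 212 bases on opposite strands, 5.8% of the Psmb9 exons, and an antisense gene that has no row here, Gm20496, overlaps 14.7% of the Psmb8 exons. Whether counting used strand is not stated.

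The PA28αβ activator opens the core gate and is linked to peptide supply for MHC class I. Psme1 (ENSMUSG00000022216, chromosome 14, 55578123 to 55581529), for the α subunit, had 4700 counts (275 CPM) and 4256 counts (269 CPM), with a log2 ratio of -0.03 (-0.09 to 0.03). Per kilobase of annotated exon and by each gene's own row, Psme1 (124 and 122 CPM) and Psmb8 (93.5 and 88.0 CPM) were the highest of the 46 measured members in each library. Psme2 (ENSMUSG00000079197, chromosome 14, 55587441 to 55591113), for the β subunit, had 1072 counts (62.7 CPM) and 792 counts (49.99 CPM), with a log2 ratio of -0.33 (-0.46 to -0.19). The log2 ratio of Psme2 was thus below that of its partner, with a difference of -0.29 (-0.44 to -0.15, a large-sample interval of the count odds ratio). With the counts of Psme2b added, Psme2 stood at 4122 and 3370 counts (240.9 and 212.7 CPM), and its log2 ratio became -0.18 (-0.25 to -0.11). The ranking per kilobase was not recomputed with this sum. Psme2b alone was at -0.13 (-0.21 to -0.06).

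All 5 interferon-inducible genes had log2 ratios under 0, with a median of -0.09, a range from -0.33 to -0.02, and 3 intervals wholly below 0. Among measured genes 48.2% were under 0, and the interval lay wholly above 0 for 31.0% and wholly below for 27.5%. For genes at 10 CPM or more these shares were 45.2%, 36.3% and 28.1%, and their median log2 ratio was 0.04. Of the 41 constitutive genes, 16 were under 0 and 25 above, with a median of 0.09, 18 intervals wholly above 0 and 4 wholly below. The groups overlapped: 2 constitutive genes lay below Psme2, 7 lay below Psmb8, and 13 lay below Psmb10. Summed over its genes, the interferon-inducible group went from 16392 counts to 14198 (log2 ratio -0.10, interval -0.13 to -0.06), and the constitutive group from 48254 to 47470 (0.09, interval 0.07 to 0.11). Of the family's counts, the inducible genes held 25.4% in C57BL/6 (25.02 to 25.7%, exact binomial) and 23.0% in Ch25h-/- cells (22.7 to 23.4%). The opposite signs were small, and without a second library of either genotype their size cannot be set against variation between mice or sorts.

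**Figure D3:**
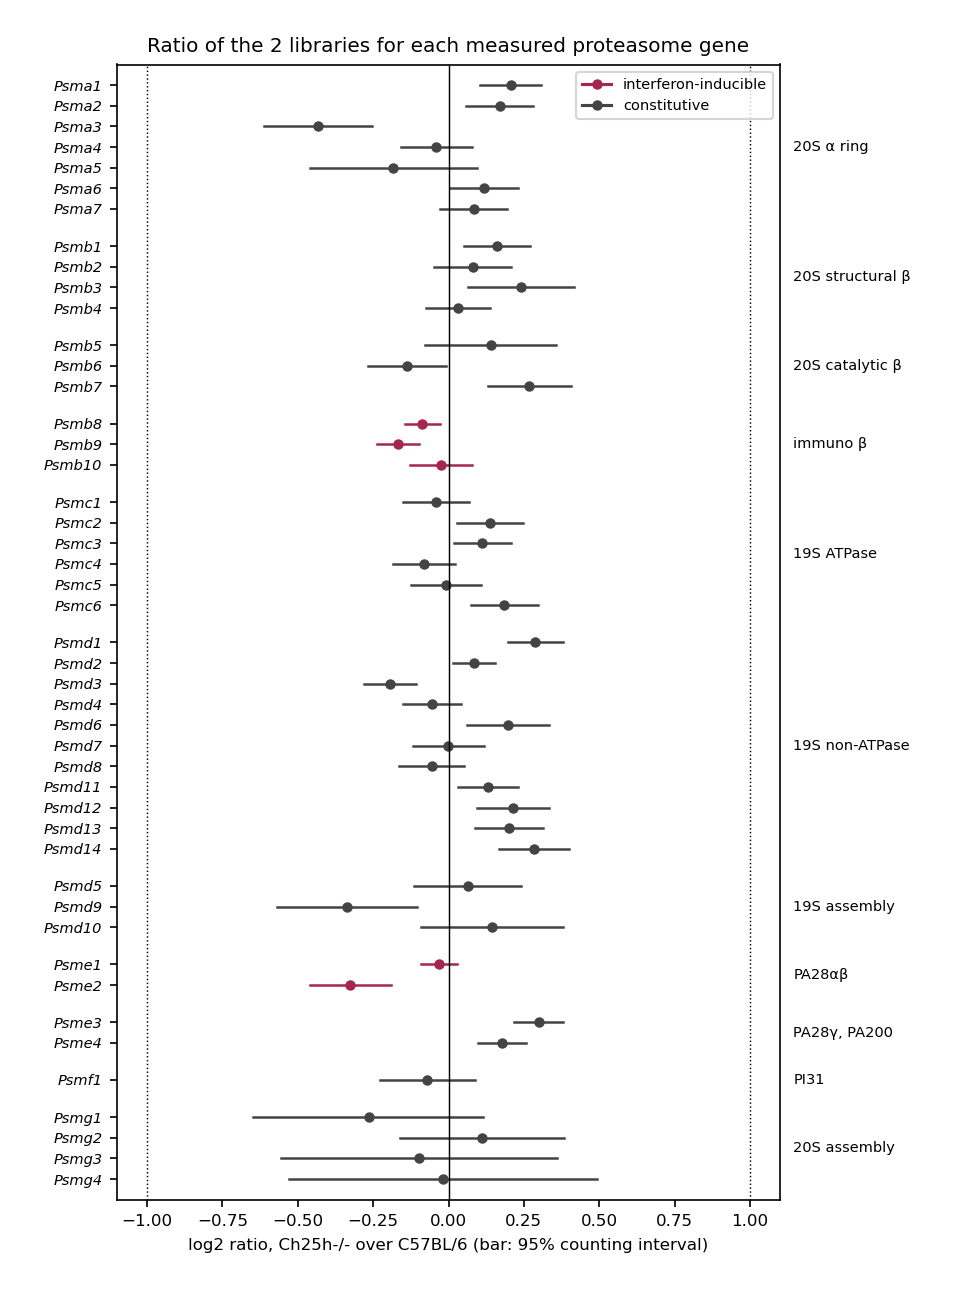
Log2 ratio of the Ch25h-/- library over the C57BL/6 library for each measured proteasome gene, grouped by role, with bars for the 95% counting interval. Dotted lines mark a 2-fold ratio, which no bar reaches. The 5 interferon-inducible genes (red) lie from -0.33 to -0.02, and the constitutive genes (grey) lie on both sides of 0.

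Each active site can be read as a pair of alternative subunits, and the levels within a pair are compared per kilobase (kb) of annotated exon. At the β5 site, Psmb8 stood at 93.5 and 88.0 CPM per kb, against 22.9 and 25.2 for Psmb5. Psmb8 therefore made up 80.3% of its pair (78.6 to 82.0%) and 77.7% (75.8 to 79.6%). At the β2 site, Psmb10 had 54.9 and 54.0 CPM per kb against 14.2 and 17.1 for Psmb7, shares of 79.4% (78.0 to 80.8%) and 75.9% (74.4 to 77.4%). At the β1 site, Psmb9 had 57.7 and 51.3 CPM per kb against 33.3 and 30.3 for Psmb6, shares of 63.4% (61.8 to 65.0%) and 62.9% (61.1 to 64.7%). The immunoproteasome gene was thus the more abundant member of every pair in both libraries.

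The share itself depends on the length used, because all annotated exons together and the longest transcript differ in length by different factors in these genes. Per kb of the longest coding transcript the C57BL/6 shares were 66.7% for Psmb9, 63.0% for Psmb10 and 89.5% for Psmb8. The change between libraries does not depend on length. The log2 ratio of Psmb10 minus that of Psmb7 was -0.29 (-0.46 to -0.12), and that of Psmb8 minus that of Psmb5 was -0.23 (-0.45 to -0.01). For Psmb9 and Psmb6, which were both lower in the Ch25h-/- library, the difference was -0.03 (-0.18 to 0.11), an interval that includes 0. Summed over the 3 sites, immunoproteasome genes had 10620 and 9150 counts and constitutive genes 2250 and 2185, a difference of -0.17 (-0.27 to -0.08). A processed pseudogene, Gm3375, matches 88.5% of the Psmb5 transcript at 98.9% identity and has no row among the genes analysed here, and its part in the Psmb5 level was not tested.

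**Figure D4:**
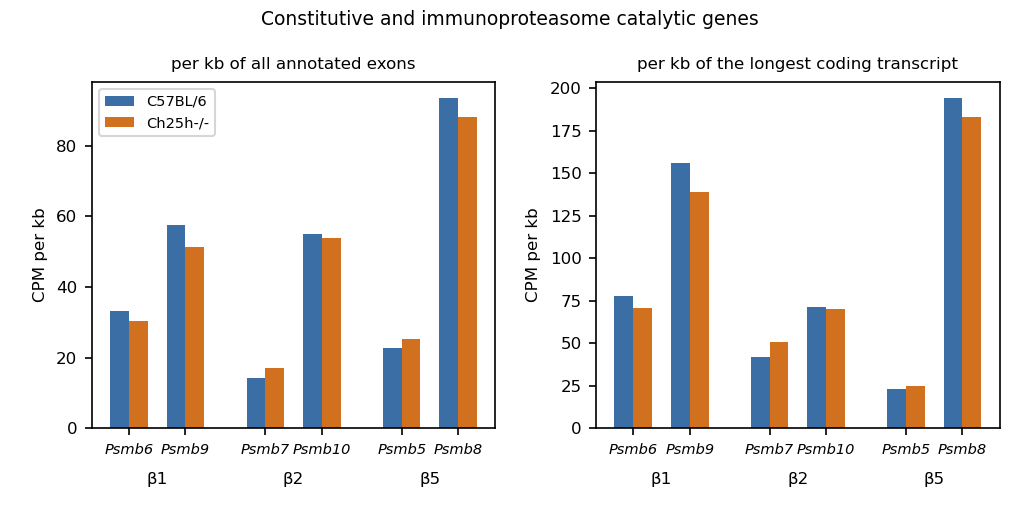
Levels of the constitutive and immunoproteasome gene of each active site in both libraries, as CPM per kb of all annotated exons (left) and per kb of the longest coding transcript (right). The bars start at 0, and no error bars are drawn because each bar is 1 library. The immunoproteasome gene (right-hand pair at each site) is higher at all 3 sites under both lengths.

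The 3 constitutive catalytic genes did not share a direction. Psmb7, for the trypsin-like β2 subunit, went from 832 counts (48.6 CPM) to 928 (58.6 CPM), with a log2 ratio of 0.27 (0.13 to 0.41). The gene's exons overlap those of Nek6 on the opposite strand over 405 bases, and Nek6 itself stood at -0.46. Psmb6, for the caspase-like β1 subunit, went from 1066 to 898 counts (-0.14, interval -0.27 to -0.01), and Psmb5, for β5, had 352 and 359 counts (0.14, interval -0.08 to 0.36). The 4 structural β genes, which have no active site, all had log2 ratios above 0. Among measured genes 48.2% were under 0, and 45.2% of those at 10 CPM or more. Psmb3 stood at 0.24 (0.06 to 0.42), or 0.18 (0.03 to 0.34) with its pseudogene Gm4950 added, and Psmb1 at 0.16 (0.05 to 0.27), while the intervals of Psmb2 (0.08) and Psmb4 (0.03) included 0.

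The α ring genes encode the gate and the docking surface of the core, and 7 of 8 were measured. Psma3 had the lowest ratio of all measured members, with 624 counts (36.5 CPM) in C57BL/6 and 428 counts (27.0 CPM) in Ch25h-/- cells, with a log2 ratio of -0.43 (-0.61 to -0.25). In the annotation, 4 other genes have transcripts that match part of Psma3 at 95% identity or more, and of these only Gm609 has a row, with 0 counts in both libraries. Psma1 (0.21, interval 0.10 to 0.31), Psma2 (0.17) and Psma6 (0.12) had intervals wholly above 0, and those of Psma4 (-0.04), Psma5 (-0.18) and Psma7 (0.08) included 0. Intervals lay wholly above 0 for 31.0% of measured genes and 36.3% of those at 10 CPM or more. Psma5 had only 244 and 199 counts, while its processed pseudogene Gm8394, 98.6% identical over 76.8% of the transcript, had 284 and 293. With both rows summed Psma5 stood at 0.01 (-0.17 to 0.19). Per kb of annotated exon, α ring levels in the C57BL/6 library ran from 9.37 CPM (Psma3) to 60.5 CPM (Psma6), a 6.46-fold spread, and in the Ch25h-/- library from 6.94 CPM (Psma3) to 65.7 CPM (Psma6).

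The 6 ATPase genes of the 19S base form the unfolding ring, and they differed little between the libraries. Psmc6 (0.18, interval 0.07 to 0.30), Psmc2 (0.14) and Psmc3 (0.11) had intervals wholly above 0, as did 31.0% of measured genes. Psmc5 was level at 73.6 and 73.1 CPM, and Psmc1 (-0.04) and Psmc4 (-0.08) had intervals that included 0. The median of the 6 genes was 0.05. Exons of Slc39a13, which had 305 and 195 counts, overlap 8.2% of the Psmc3 exons on the opposite strand.

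The 11 non-ATPase genes of the 19S cap with a Psmd symbol had a median log2 ratio of 0.13, with 7 intervals wholly above 0 and 1 wholly below. The shares of measured genes were 31.0% above and 27.5% below, and at 10 CPM or more they were 36.3% and 28.1%. Psmd14, for the deubiquitinase that strips ubiquitin chains from substrates, had 1144 counts (66.9 CPM) and 1290 counts (81.4 CPM), with a log2 ratio of 0.28 (0.17 to 0.40). The scaffold gene Psmd1 had 1836 and 2075 counts, a log2 ratio of 0.29 (0.20 to 0.38). The lid genes Psmd12 (0.22), Psmd13 (0.20), Psmd6 (0.20) and Psmd11 (0.13) lay on the same side, and 10.1% of the Psmd13 exons overlap Sirt3 (264 and 238 counts) on the opposite strand. Psmd2, the other large scaffold gene, stood at 0.09 (0.02 to 0.15). Adding its pseudogene Gm5422, which had 891 and 789 counts, gave 0.06 with an interval from -0.01 to 0.12. Psmd3 was the exception, with 2365 counts (138 CPM), 1914 counts (121 CPM) and a log2 ratio of -0.19 (-0.28 to -0.11). The ubiquitin receptor gene Psmd4 (-0.05), Psmd8 (-0.06) and Psmd7, at 70.9 CPM in both libraries, had intervals that included 0.

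The activators outside the interferon-inducible pair were higher in the Ch25h-/- library. Psme3 encodes PA28γ, a nuclear activator linked to cell cycle proteins, and had 2399 counts (140.2 CPM) in C57BL/6 and 2732 counts (172 CPM) in Ch25h-/- cells. Its log2 ratio of 0.30 (0.22 to 0.38) was the highest of the family. Psme4, for the nuclear activator PA200, had 2430 counts (142 CPM) and 2544 counts (161 CPM), a log2 ratio of 0.18 (0.10 to 0.26). The log2 ratio of Psme1 minus that of Psme3 was -0.33 (-0.43 to -0.23). Proliferation markers lay on the same side as Psme3: all 12 had intervals wholly above 0, against 31.0% of measured genes. These markers summed to 1494 and 2687 CPM. Their part in the Psme3 ratio was not tested.

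The assembly genes had low levels. Per kb of annotated exon in the C57BL/6 library, the 4 Psmg genes (1.80 to 7.63 CPM), Psmd5 (4.28 CPM) and Psmd9 (2.94 CPM) lay below every core and cap subunit gene among the measured members, while Psmd10 (11.8 CPM) did not. The 19S chaperone gene Psmd9 had 364 and 267 counts, a log2 ratio of -0.34 (-0.57 to -0.10), and a long noncoding gene on the opposite strand, Gm26745, overlaps 25.5% of its exons but had 2 and 1 counts. Psmd5 (0.06) and Psmd10 (0.14) had intervals that included 0. The 4 measured 20S assembly chaperone genes, Psmg1 to Psmg4, summed to 521 and 472 counts, and all 4 intervals included 0. Psmf1, which encodes the regulator PI31, had 696 and 614 counts, a log2 ratio of -0.07 (-0.23 to 0.09).

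Promoter sequences from RefSeq (GRCm38.p6, 250 bases before to 50 after the start) were found for 40 of 48 members, and 3 short motifs were searched on both strands. The interferon-stimulated response element core, GAAA followed after 2 free bases by GAAA, was found in 1 of 5 interferon-inducible genes (Psme1) and 4 of 34 constitutive genes, against 3.44% of 32851 promoters. The gamma-activated site core TTCNNNGAA was in 1 of 5 (Psmb8) and 2 of 34, against 8.3%. The antioxidant response element core TGACNNNGC, the type of site bound by the proteasome gene activator NRF1, was in 0 of 5 and 6 of 34, against 12.4%. A member counted if any of its promoter windows matched, and 3 members had more than 1 window, while the percentages count windows. The matches in the inducible genes and in 2 constitutive catalytic genes are shown as 30-base stretches, with the motif in capitals and the gene's own strand printed, so that Psme1 shows the reverse complement of its motif.
Psme1: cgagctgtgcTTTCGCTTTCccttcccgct
Psmb8: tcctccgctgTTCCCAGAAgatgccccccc
Psmb5: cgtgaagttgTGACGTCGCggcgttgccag
Psmb6: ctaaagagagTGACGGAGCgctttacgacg
These lie at chr14:55578493-55578522 (plus strand), chr17:34198088-34198117 (plus), chr14:54618023-54618052 (minus) and chr11:70525338-70525367 (plus). The motifs of Psmb5 and Psmb6 begin 47 and 9 bases before the RefSeq start, that of Psmb8 begins 97 bases before it, and that of Psme1 lies just past it. All 250 bases before the RefSeq start of Psmb8 and of Psmb9 lie in annotated exons, so the Psmb8 match is exonic. Exons were checked only before the start, so the Psme1 match, which lies past it, was not checked. In the Psmb9 window these exons belong to Psmb9 and Tap1. The longest exon-free stretch before the start has 111 bases for Psme1, 223 for Psmb5 and 250 for Psmb6. Psmb10 and Psme2 were not checked for exons. A match of this kind is a description of letters, and no match says only that these letters are not in this window.

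Proteasome partners without a Psm symbol had mostly small positive ratios. Of 18 listed genes, 17 were measured, with a median log2 ratio of 0.13, 9 intervals wholly above 0, 2 wholly below and no call at 2-fold. The shares of measured genes were 31.0% above, 27.5% below and 7.84% called, and at 10 CPM or more they were 36.3%, 28.1% and 3.85%. The cap-bound deubiquitinase genes Uchl5 (30.6 and 43.0 CPM, 0.49) and Usp14 (39.0 and 52.1 CPM, 0.42) were highest. Zfand2a, an arsenite- and heat-inducible proteasome partner, was lowest (41.1 and 28.5 CPM, -0.53). Pomp, which guides assembly of the core and of immunoproteasomes in particular, stood at 0.08, and AI314180, which encodes the proteasome adaptor ECM29, at 0.13.

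The list for the NRF1 route, which restores proteasome gene transcription when proteasomes fail, also held Nfe2l2, the gene of the related factor NRF2. Its 6 genes had a median log2 ratio of -0.25. Of their intervals, 5 lay wholly below 0 and 1 wholly above, against 27.5% and 31.0% of measured genes. Mafk (103 and 64.3 CPM, -0.68) and Nfe2l2 (150.2 and 107.6 CPM, -0.48) were lowest, and Nfe2l1, the gene of NRF1 itself, stood at -0.13. The 20S and 19S genes named above as constitutive had summed ratios of 0.08 and 0.07 in the same libraries. Whether these ratios are related to those of the regulator genes was not tested.

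Genes between interferon-gamma and the immunoproteasome went both ways, with a median log2 ratio of -0.02, 5 of 12 intervals wholly above 0 and 6 wholly below, against 31.0% and 27.5% of measured genes. Their summed log2 ratio was 0.18, opposite in sign to the median. Ifng and the transcription factor gene Irf8 each stood at 0.49 and the receptor gene Ifngr1 at 0.37, whereas Ifngr2 (67.4 and 35.7 CPM, -0.92) and Jak2 (475 and 339.5 CPM, -0.49) were lower. Irf1, the transcription factor gene that drives Psmb9 and Psmb8, had 668 and 563 CPM (-0.25). Among 11 peptide transport and loading genes the median was 0.10, with Pdia3 (0.49) and Canx (0.42) highest and the MHC class I gene H2-K1 at -0.17, and the summed log2 ratio was -0.01. None of these 23 genes was called, against 7.84% of measured genes.

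Markers of several cell types differed between the libraries by more than any measured proteasome gene. For comparison, 31.0% of all measured genes had intervals wholly above 0 and 27.5% wholly below. All 12 NK and cytotoxic markers had intervals wholly above 0 (median log2 ratio 0.73). Neutrophil markers had a median of 0.97, with 9 of 10 intervals wholly above 0 and sums of 1161 and 2052 CPM. In the other direction, 7 of 8 measured conventional dendritic cell markers had intervals wholly below 0 (median -1.73), with sums of 1929 and 815 CPM, and B cell markers had a median of -0.68. Of the defining dendritic cell markers, Xcr1 had 0 and 6 counts and Clec9a 5 and 13. For red pulp macrophage markers the median was -0.75, with 8 of 10 intervals wholly below 0, and marginal zone macrophage markers a median of -0.87 with 4 of 5 below. Ly6C-low monocyte markers were split, with 4 of 10 intervals wholly above 0 and 6 below, and their median (-0.32) and summed log2 ratio (0.28) differed in sign. T cell markers were split as well, with 3 of 8 above, 2 below and a median of 0.25. All 6 Ly6C-high monocyte markers had intervals wholly above 0, with a median of 0.69. The part of these markers in the proteasome ratios was not tested.

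**Figure D5:**
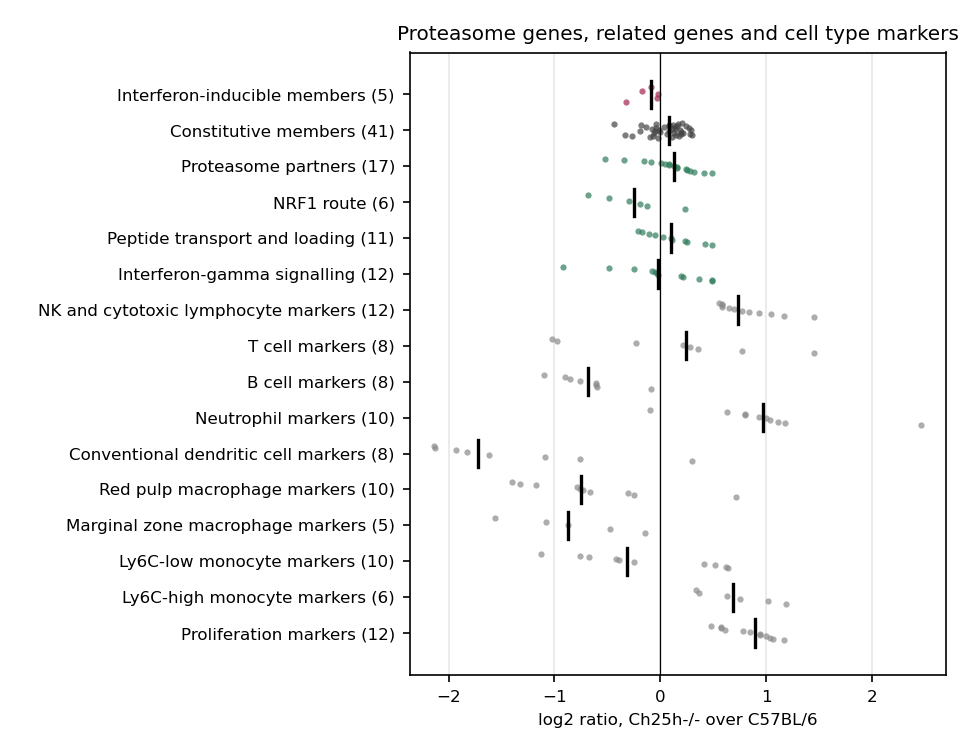
Log2 ratios (Ch25h-/- over C57BL/6) of the measured genes of each list, with the number of genes in brackets and a black bar at the median. The proteasome genes lie near 0, between -0.43 and 0.30, while the medians of NK, neutrophil and proliferation markers lie to the right and those of dendritic cell and macrophage markers to the left.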

How the data were processed

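RNA of sorted spleen cells was measured in 2 libraries, 1 per genotype. The authors' deposited values are whole, unnormalized counts for each gene. GRCm38 (mm10) is the build, and GSNAP, Subread 1.5.2 with featureCounts, edgeR 3.26.8 and FastQC 0.11.9 are listed without their roles, per the submitters' processing notes. The strand setting and the treatment of reads with several matches are not given in the sources used here. Counts were used as deposited and scaled over the whole table with TMM factors of 1.01 and 0.991 (edgeR 4.0.16, R 4.3.3). Ratios carry exact 95% Clopper-Pearson intervals of a library's share of both counts (scipy 1.17.1). Differences between ratios carry large-sample intervals of the count odds ratio. Positions, exon lengths and overlaps come from GENCODE M21 (GRCm38), which holds all 48 member IDs. Near-identical copies are annotated transcripts matching at least 200 bases of a member at 95% identity or more, found with BLAST. The calculation was tested on simulated counts that held counting error only, without variation between mice or sorts.

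All members are named by the symbol rule. Of each list of related genes, the 2 largest ratios in size and the most abundant gene could be named, and Usp14, Pomp, Ifngr1, Jak2, Irf1, Tap2, Clec9a, Xcr1 and Cd209b were added after their values were seen. Members and lists were chosen with earlier results of these data known. The results were recomputed with size factors from DESeq2 1.42.0, with library totals, with upper quartiles, with TMM factors that leave out 38 abundant lineage and mitochondrial genes, with filters at 5 CPM and at 1 count, a prior count of 2, other call thresholds and other lengths. Summing counts with copies was chosen after seeing the data.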

Additional observations from a re-analysis of the deposited data

How the results depend on the processing

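No member was called higher or lower under any of 10 alternatives. The median of the interferon-inducible genes ran from -0.11 (total counts) to -0.07 (upper quartile scaling), and that of the constitutive genes from 0.06 to 0.10. The choice of scaling shifted every ratio equally, by -0.03 to 0.01 on the log2 scale, and kept all 5 interferon-inducible genes under 0. Upper quartile scaling changed the sign of 2 constitutive genes whose intervals include 0. The one ratio of a single gene that left its interval was that of Psme2, -0.18 with Psme2b added. The shares of the catalytic pairs moved with the length used, since the ratio of lengths differs between definitions. With raw counts, Psmb9 made up 77.2% (C57BL/6) and 76.8% (Ch25h-/-) of its pair, Psmb10 65.8% and 61.1%, and Psmb8 93.9% and 92.9%. Per kb of the longest coding transcript, Psmb9 made up 66.7% and 66.2%, Psmb10 63.0% and 58.2%, and Psmb8 89.5% and 87.9%. The immunoproteasome gene stayed above 50% in each. No paired analysis was possible because each genotype has 1 library, and no library could be left out. Depth limits the low assembly genes most, where intervals of Psmg3 and Psmg4 span about 1 on the log2 scale.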
